A study of Arabidopsis thaliana with 12 samples.

Results

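The 8 genes described here belong to the transcriptional output and the DNA-binding partners of DELLA proteins: the zinc-finger genes IDD1 (ENY, AT5G66730), GAF1 (IDD2, AT3G50700), IDD3 (AT1G03840), IDD4 (AT2G02080) and IDD10 (AT5G03150), and the DELLA-responsive genes SCL3 (AT1G50420), XERICO (AT2G04240) and BHLH137 (AT5G50915). They were taken by locus identifier, 8 of the 33602 gene identifiers listed, and all 8 passed the filter on low values. Poly-A RNA of whole developing Arabidopsis thaliana seeds, dissected at 9 days after pollination from plants kept at 22 °C in long days (16 h light, 8 h dark), was sequenced in 12 libraries. Wild-type Col-0 came as 2 sets, named Col-0-1 and Col-0-2, beside the mutants dellaq and lec1-4, with 3 libraries in each group. The labels give dellaq by that name alone, without its alleles or its genetic background, and they tie neither wild-type set to a mutant, so each mutant was set against both sets. Whether the 3 libraries of a group came from separate plants is not stated, so p-values speak only to the variation among these libraries, possibly technical in part.

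DELLA proteins are nuclear GRAS-domain regulators that restrain gibberellin responses and are degraded when gibberellin binds its GID1 receptors. They do not bind DNA themselves; INDETERMINATE DOMAIN (IDD) zinc-finger proteins carry them to promoters, where DELLA acts as a coactivator and TOPLESS-type corepressors can take its place. In seeds, gibberellin and abscisic acid act against each other during maturation and germination, and DELLA proteins sit on the abscisic acid side of that balance.

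IDD zinc fingers recognise DNA with the core TTTGTC, so the 250 bases before each RefSeq gene start were searched for it on both strands. The core was present in 4 of the 8 windows, against 6624 of 27561 protein-coding genes, or 24.0%, with windows of the same length. The 4 windows that hold it are printed 5′ to 3′ on the gene's strand, from RefSeq assembly TAIR10.1; the build behind the deposited values is not given in the sources used here. Capitals mark the core, which reads GACAAA where it lies on the opposite strand. The windows are chr5:26644739-26644988 (minus strand) for IDD1, chr3:18840161-18840410 (plus strand) for GAF1, chr2:521738-521987 (minus strand) for IDD4 and chr5:20712474-20712723 (minus strand) for BHLH137.
IDD1: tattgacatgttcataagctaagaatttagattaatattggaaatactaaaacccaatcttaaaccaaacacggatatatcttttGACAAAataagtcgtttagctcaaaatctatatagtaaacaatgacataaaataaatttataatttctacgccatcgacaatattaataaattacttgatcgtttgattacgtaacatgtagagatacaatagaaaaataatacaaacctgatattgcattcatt
GAF1: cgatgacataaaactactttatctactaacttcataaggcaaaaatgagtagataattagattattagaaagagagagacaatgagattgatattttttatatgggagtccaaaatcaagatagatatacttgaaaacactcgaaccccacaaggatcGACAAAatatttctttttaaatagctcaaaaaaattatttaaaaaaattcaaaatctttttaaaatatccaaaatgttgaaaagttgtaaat
IDD4: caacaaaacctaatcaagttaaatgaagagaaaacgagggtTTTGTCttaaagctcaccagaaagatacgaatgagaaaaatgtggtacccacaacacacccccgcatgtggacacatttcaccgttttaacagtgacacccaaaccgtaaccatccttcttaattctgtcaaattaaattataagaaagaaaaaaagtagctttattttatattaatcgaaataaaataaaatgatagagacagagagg
BHLH137: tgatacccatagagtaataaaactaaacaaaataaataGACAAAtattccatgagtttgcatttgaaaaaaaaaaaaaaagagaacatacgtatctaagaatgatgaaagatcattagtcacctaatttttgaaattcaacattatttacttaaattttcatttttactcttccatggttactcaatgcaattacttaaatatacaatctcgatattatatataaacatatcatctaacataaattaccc
Relative to the gene start, the first base of the core lay at position −165 in IDD1, −92 in GAF1, −209 in IDD4 and −212 in BHLH137. These letters are not in the windows of IDD3, IDD10, SCL3 and XERICO. A match of 6 letters is a description of the sequence and not a binding site.

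Levels are FPKM, fragments normalised to transcript length and library size, as the authors computed them. Depth, inferred from the steps between low values and from RefSeq exon lengths, was 13.7 M to 19.4 M fragments per library. Among the DELLA genes, RGL1 fell to 1.39 ± 0.301 FPKM (SD, n = 3) in dellaq, from 14.4 ± 0.0977 in Col-0-1 and 9.28 ± 0.791 in Col-0-2. RGL2 fell to 4.66 ± 1.20 from 25.5 ± 0.528 and 16.9 ± 1.11, and RGA to 20.8 ± 0.252 from 28.2 ± 1.11 and 25.6 ± 1.23, whereas GAI (8.98 ± 2.89) and RGL3 (8.00 ± 0.847) did not pass the test against either set. LEC1 fell to 2.81 ± 0.543 FPKM in lec1-4, from 80.5 ± 12.9 in Col-0-1 and 124 ± 1.02 in Col-0-2. Summed over 5 embryo and maturation markers (LEC1, FUS3, ABI3, CRA1 and OLEO1), levels were 1079 to 2238 FPKM in Col-0-1, 361 to 433 in Col-0-2, 7154 to 11016 in dellaq and 150 to 209 in lec1-4. LEC1, the gene that names lec1-4, is itself in this sum, so part of the low lec1-4 sum is the fall of LEC1. CRA1 and OLEO1 made up most of the dellaq sum, at 4239 ± 1151 and 4673 ± 755 FPKM. FUS3 and ABI3 in dellaq (135 ± 8.07 and 95.3 ± 4.24) had means only a little above Col-0-1 (127 ± 13.8 and 84.3 ± 5.08). Unlike the sum, LEC1 had a lower mean in dellaq (70.5 ± 37.8) than in either wild-type set. FUS3 in lec1-4 (103 ± 6.93) was above Col-0-2 (45.3 ± 3.54), also unlike the sum. Sums over 4 endosperm markers were 1298 to 1728, 588 to 664, 2833 to 3094 and 609 to 776 FPKM in Col-0-1, Col-0-2, dellaq and lec1-4, most of it from EPR1. ZOU, unlike the sum, was lower in dellaq (17.2 ± 3.28 FPKM) than in either wild-type set (37.0 ± 2.26 and 37.1 ± 2.25). SUC5 also ran unlike the sum, with its highest mean in Col-0-2 (137 ± 6.81, against 83.6 ± 1.94 in Col-0-1 and 97.6 ± 4.91 in dellaq). MEA in dellaq (2.93 ± 0.488) lay between the means of Col-0-1 (2.49 ± 0.149) and Col-0-2 (3.38 ± 1.32). Over 4 seed coat markers the sums were 1103 to 1199, 1074 to 1192, 707 to 837 and 1174 to 1218 FPKM in the same order of groups, mostly from TT10 and BAN. The wild-type sums hide opposite differences. BAN, TT12 and TT2 had higher means in Col-0-2 than in Col-0-1 (528 and 354 FPKM for BAN), and TT10 a lower one (560 and 791). BAN, TT12 and TT2 were lowest in dellaq, whereas TT10 there (641 ± 66.2) lay between the wild-type means. Over 4 silique wall and carpel markers the sums were 37.2 to 37.9, 19.1 to 22.8, 11.96 to 13.3 and 35.0 to 43.2 FPKM, with CRC at 0 in 2 dellaq libraries. Plastid-encoded transcripts summed to 172 to 251 FPKM in Col-0-1, 4523 to 5039 in Col-0-2, 7116 to 8593 in dellaq and 127 to 186 in lec1-4. The part of these differences in the results was not tested, and in whole seeds fewer cells of a type and less RNA per cell cannot be told apart.

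**Figure D1:**
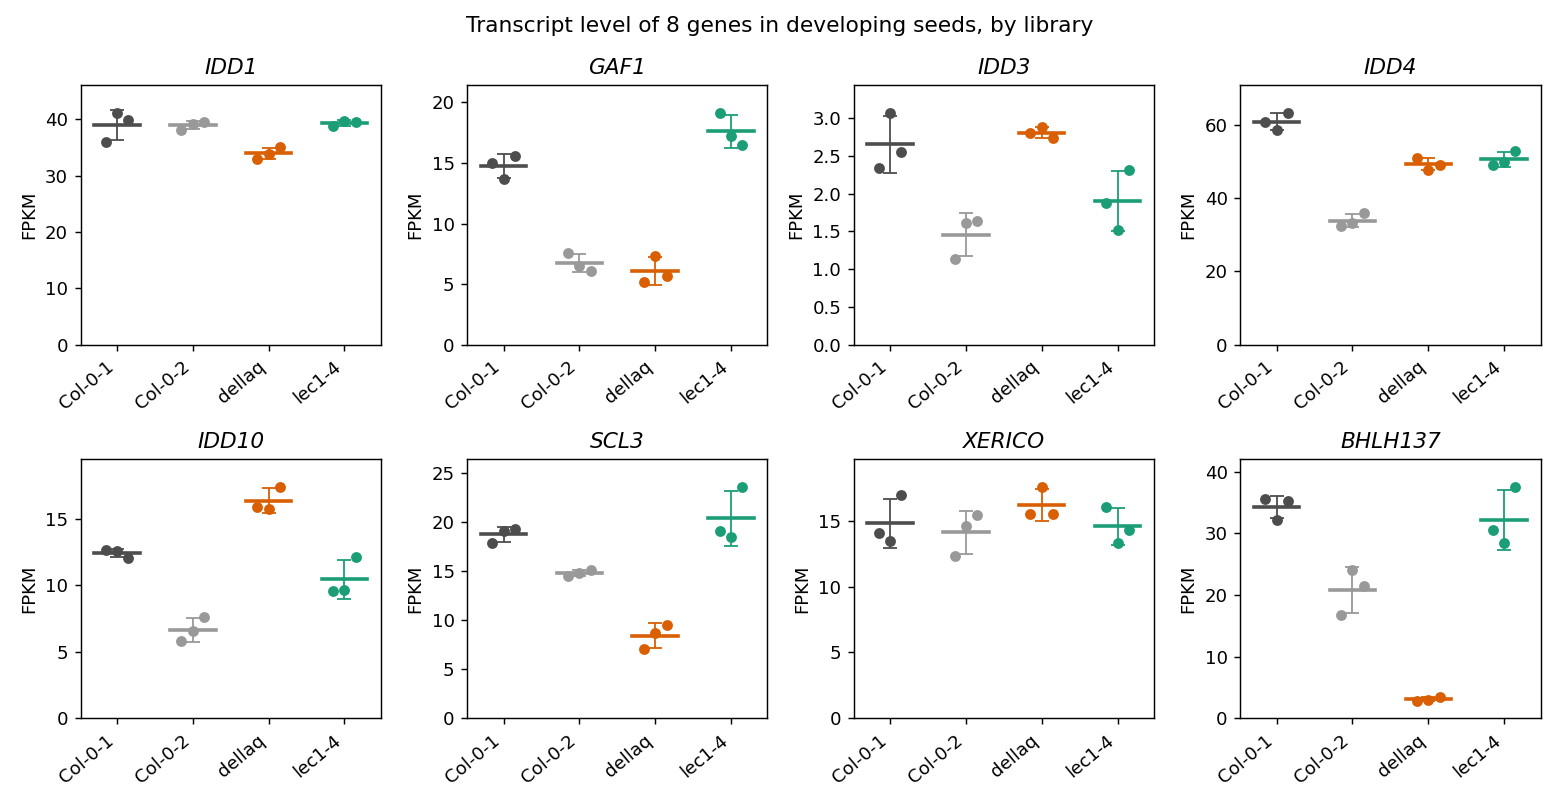
Transcript level (FPKM, linear axis from 0) of the 8 genes in each of the 12 libraries; points are libraries, thick bars group means and thin bars SD (n = 3). The dellaq libraries lie below all others for BHLH137 (2.85 to 3.50 FPKM) and SCL3 (7.01 to 9.51) and above all others for IDD10 (15.7 to 17.4), and Col-0-2 lies below Col-0-1 for 6 of the 8 genes.

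In dellaq, the DELLA-responsive genes BHLH137 and SCL3 fell against both wild-type sets, XERICO passed the test against neither, and the IDD genes moved in different directions: IDD10 rose against both sets, IDD1 was slightly lower against both, IDD4 was lower than one set and higher than the other, and GAF1 and IDD3 each passed against 1 set alone. Tests were two-sided limma-trend fits on log2(FPKM + 1) over 20222 genes, with Benjamini-Hochberg adjusted p under 0.05 as the threshold; log2 changes below use that scale, on which genes with low values appear to change less. Against Col-0-1, 6 of the 8 genes passed (1 higher, 5 lower), where 70.3% of all genes tested did (19.4% higher, 50.9% lower). Against Col-0-2, 6 passed (3 higher, 3 lower), where 63.5% of all genes did (21.9% higher, 41.6% lower). In the same direction against both sets, 4 of 8 passed (1 higher, 3 lower), beside 38.2% of all genes (9.78% higher, 28.4% lower), and IDD4 passed in opposite directions, as did 9.54% of all genes here and, in lec1-4, IDD4 again beside 7.12%. These shares of members lie near those of all genes, so the counts are no result about the 8 genes, and the size of each gene's change carries the description.

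In lec1-4, 5 of the 8 genes (GAF1, IDD4, IDD10, SCL3 and BHLH137) were higher than in Col-0-2 and none lower, where 65.9% of all genes passed (42.7% higher, 23.3% lower). Against Col-0-1, IDD4 alone passed, being lower, where 26.6% of all genes did (15.8% higher, 10.7% lower). No gene of the 8 passed in the same direction against both sets, beside 12.2% of all genes (8.19% higher, 4.01% lower), and with only the compared libraries in the fit GAF1 did, as 1 of 8. The wild-type sets differed for the same genes plus IDD3: 6 of 8 were lower in Col-0-2 than in Col-0-1 and none higher, where 65.9% of all genes passed (25.8% higher, 40.1% lower). The SCL3 call among them (−0.32, adjusted p = 0.0158) was lost with median-ratio scaling (−0.20, adjusted p = 0.11), upper-quartile scaling (−0.22, adjusted p = 0.080) and a length and GC trend removed (−0.13, adjusted p = 0.31). Comparisons that use the same wild-type set share those 3 libraries, so their changes are not independent of each other.

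Over all genes tested, the median log2 change was −0.22 for dellaq against Col-0-1, −0.12 against Col-0-2, 0.13 for lec1-4 against Col-0-2, 0.05 against Col-0-1 and −0.10 for Col-0-2 against Col-0-1. Median-ratio scaling, computed on the FPKM values, brought these medians near 0 and changed the split of calls. For dellaq against Col-0-1 the split went from 3917 higher and 10301 lower genes to 6531 and 6041 with median-ratio scaling and to 2674 and 12980 with equal FPKM sums. For dellaq against Col-0-2 it went from 4424 and 8419 to 6163 and 6300 with median-ratio scaling. For lec1-4 against Col-0-2 it went from 8626 and 4704 to 6009 and 6530 with median-ratio scaling and to 11203 and 3507 with equal sums, and for lec1-4 against Col-0-1 from 3201 and 2169 to 2402 and 2527 with median-ratio scaling. Between the wild-type sets it went from 5210 higher and 8110 lower in Col-0-2 to 6658 and 6275 with median-ratio scaling and to 3893 and 10382 with equal sums. Upper-quartile scaling gave splits between those of the deposited FPKM and of median-ratio scaling for each of these 5 comparisons. Changes of up to about the size of these medians therefore depend on the scaling, as the values of IDD1, IDD4 and XERICO show. Calls on some larger changes depend on it too. For IDD10 in dellaq against Col-0-1, the change of 0.37 became 0.19 without a call with equal FPKM sums.

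**Figure D2:**
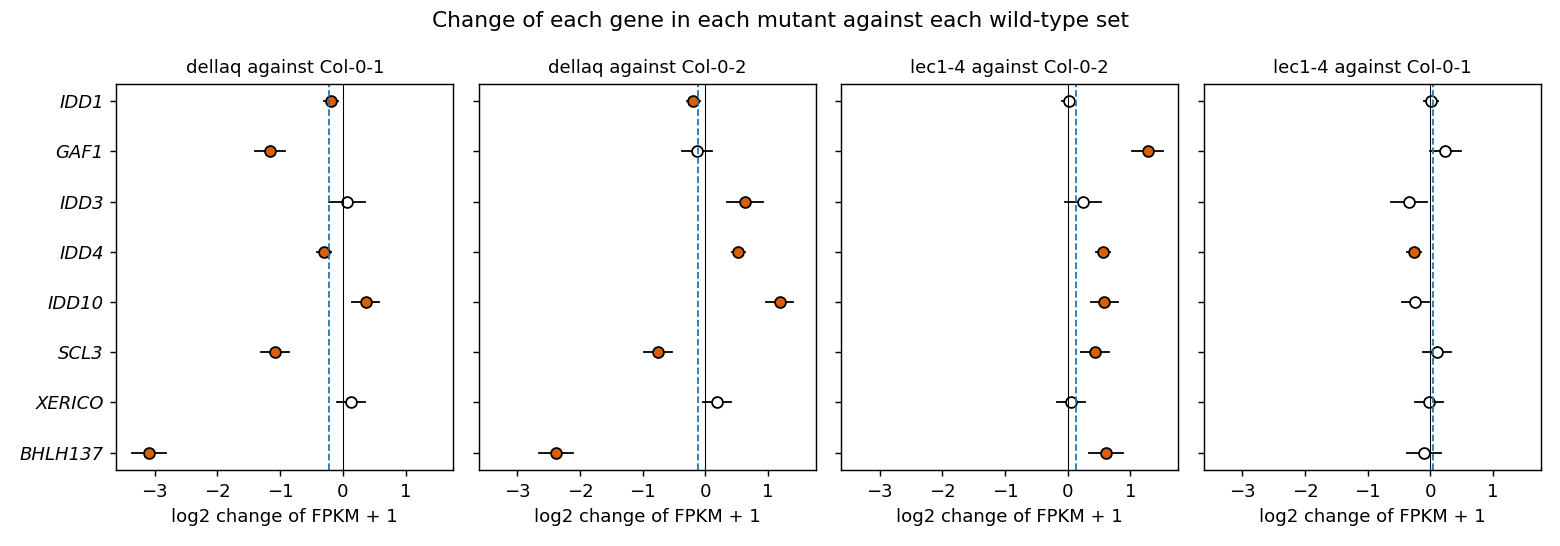
Change of each of the 8 genes in each mutant against each wild-type set, on the log2(FPKM + 1) scale; points are fitted changes, lines 95% intervals, filled points passed adjusted p 0.05, and the dashed line is the median over all 20222 genes tested. BHLH137 in dellaq (−3.10 and −2.38) lies farthest from 0, and IDD1 lies beside the dashed line in both dellaq panels.

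BHLH137, a basic helix-loop-helix transcription factor gene known as an early DELLA-induced gene in seedlings, showed the largest change of the 8 in dellaq. It stood at 35.5, 32.2 and 35.2 FPKM in the Col-0-1 libraries, at 16.7, 24.0 and 21.5 in Col-0-2, at 2.85, 3.06 and 3.50 in dellaq and at 30.5, 28.4 and 37.6 in lec1-4. The 3 dellaq libraries lay far below the other 9, and Col-0-2 lay below Col-0-1 and lec1-4 with no overlap. Its mean in dellaq, 3.14 ± 0.333 FPKM (SD, n = 3), was 10.9-fold lower than in Col-0-1 (34.3 ± 1.80; log2 change −3.10, SE 0.12, adjusted p = 1.83e-09) and 6.62-fold lower than in Col-0-2 (20.8 ± 3.70; −2.38, adjusted p = 1.67e-08). The fall was as clear between the mutants, 10.3-fold against lec1-4 (32.2 ± 4.82; −3.00, adjusted p = 1.39e-09), where no wild-type set enters. In rank among all genes tested, BHLH137 went from above 77.2% of them in Col-0-1 to above 21.1% in dellaq. In lec1-4 it was 1.55-fold higher than in Col-0-2 (0.61, adjusted p = 9.36e-04) and did not pass against Col-0-1 (−0.10, 95% interval −0.37 to 0.17), whose libraries lay inside its wider spread.

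SCL3 encodes a GRAS protein that opposes DELLA in gibberellin signalling while its own gene is activated by DELLA with IDD proteins. Its level was 17.8, 19.1 and 19.2 FPKM in the Col-0-1 libraries, 14.5, 14.8 and 15.1 in Col-0-2, 7.01, 8.67 and 9.51 in dellaq and 19.0, 18.4 and 23.6 in lec1-4. All 3 dellaq libraries were below all 9 others, and lec1-4 replicate 3 was the highest of the 12. SCL3 fell 2.23-fold in dellaq (8.40 ± 1.27 FPKM) against Col-0-1 (18.7 ± 0.761; −1.08, SE 0.10, adjusted p = 1.86e-06) and 1.76-fold against Col-0-2 (14.8 ± 0.285; −0.76, adjusted p = 4.04e-05). Taken from the median of all genes, these changes were −0.85 and −0.64. In lec1-4 (20.3 ± 2.82) it was 1.38-fold higher than in Col-0-2 (0.43, adjusted p = 0.00291), a call that ended after a length and GC trend was removed (0.21, adjusted p = 0.11), and it did not pass against Col-0-1 (0.11, interval −0.12 to 0.33).

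XERICO encodes a small RING-type protein that raises abscisic acid levels, and DELLA promotes its expression in seedlings. It read 14.0, 13.4 and 16.9 FPKM in the Col-0-1 libraries, 12.3, 14.6 and 15.4 in Col-0-2, 15.5, 17.6 and 15.5 in dellaq and 16.1, 13.3 and 14.3 in lec1-4. The groups overlapped, apart from the dellaq libraries, which lay just above those of Col-0-2. XERICO did not pass the test in dellaq (16.2 ± 1.21 FPKM) against Col-0-1 (14.8 ± 1.87; 0.13, interval −0.10 to 0.35, adjusted p = 0.290) or Col-0-2 (14.1 ± 1.60; 0.19, interval −0.03 to 0.42, adjusted p = 0.125), and these intervals exclude a fall of the size of SCL3's in either comparison. With median-ratio scaling XERICO passed as higher against both sets (0.37 and 0.32, adjusted p = 0.0092 and 0.020), and with equal FPKM sums its change against Col-0-1 was −0.05. In lec1-4 (14.6 ± 1.39) the change was 0.04 against Col-0-2 (interval −0.18 to 0.27) and −0.02 against Col-0-1 (interval −0.24 to 0.21). With a length and GC trend removed it also passed as higher in dellaq, against Col-0-1 (0.32, adjusted p = 0.0154), Col-0-2 (0.34, adjusted p = 0.0105) and lec1-4 (0.40, adjusted p = 0.0034). Of the 3 DELLA-responsive genes, then, BHLH137 and SCL3 fell in dellaq, and XERICO passed as lower there under no setting run.

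IDD1, or ENHYDROUS, is a zinc-finger factor known to bind DELLA. Together with IDD4 it was the most abundant of the 5 IDD genes, above 79.0% to 80.7% of all genes tested in every group. Its libraries read 36.0, 41.2 and 39.9 FPKM in the Col-0-1 libraries, 38.1, 39.1 and 39.5 in Col-0-2, 33.0, 33.8 and 35.1 in dellaq and 38.7, 39.6 and 39.6 in lec1-4. The dellaq libraries were the 3 lowest of the 12, by a small margin, and the other 3 groups overlapped. IDD1 was 1.15-fold lower in dellaq (33.9 ± 1.03) than in Col-0-1 (39.0 ± 2.70; −0.19, SE 0.05, adjusted p = 0.00405) and than in Col-0-2 (38.9 ± 0.712; −0.19, adjusted p = 0.00477). Against the median of all genes its changes were 0.03 and −0.07. With median-ratio scaling the change against Col-0-1 turned to 0.06 and that against Col-0-2 lost its call. With a length and GC trend removed IDD1 passed as higher than Col-0-1 (0.16, adjusted p = 0.0186). In lec1-4 the deposited values gave changes of 0.01 against either set (intervals −0.09 to 0.12). Against Col-0-2, however, IDD1 passed as lower with median-ratio scaling (−0.14, adjusted p = 0.031) and with a length and GC trend removed (−0.23, adjusted p = 0.0026). With equal FPKM sums it passed as higher (0.17, adjusted p = 0.0097).

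GAF1, or IDD2, is a DELLA-binding factor that activates gibberellin synthesis and receptor genes with DELLA as coactivator and represses them with TOPLESS-type partners. It read 15.0, 13.7 and 15.5 FPKM in the Col-0-1 libraries, 7.56, 6.51 and 6.09 in Col-0-2, 5.19, 7.35 and 5.66 in dellaq and 19.1, 17.2 and 16.5 in lec1-4. Its libraries formed a low pair of groups, Col-0-2 and dellaq, which overlapped, and a high pair, Col-0-1 and lec1-4, with every lec1-4 library above every wild-type library. In dellaq (6.07 ± 1.13) GAF1 was 2.43-fold lower than in Col-0-1 (14.7 ± 0.969; −1.16, SE 0.11, adjusted p = 1.89e-06) and did not pass against Col-0-2 (6.72 ± 0.761; −0.13, interval −0.38 to 0.11). Without dellaq replicate 2 the change against Col-0-2 was −0.26 (adjusted p = 0.039). In lec1-4 (17.6 ± 1.37) it was 2.62-fold higher than in Col-0-2 (1.27, adjusted p = 1.06e-06) and did not pass against Col-0-1 (0.24, interval −0.00 to 0.49, adjusted p = 0.134, and 0.0489 with only the compared libraries). Col-0-2 was 2.19-fold below Col-0-1 (−1.03, adjusted p = 5.74e-06), although both sets carry the same genotype label. Of the 4 silique wall and carpel markers, FUL and RPL had means in the same order of groups as GAF1, and IND and CRC did not. FUL stood at 15.5 ± 0.305 FPKM in Col-0-1, 5.05 ± 1.74 in Col-0-2, 2.23 ± 0.0278 in dellaq and 16.8 ± 1.64 in lec1-4. RPL stood at 18.2 ± 0.956, 14.4 ± 0.951, 9.80 ± 0.627 and 19.1 ± 1.53 FPKM in turn. The part of these markers in the GAF1 differences was not tested.

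IDD3, or MAGPIE, patterns the root ground tissue together with IDD10, and both proteins can bring DELLA to the SCL3 promoter. IDD3 was the least abundant of the 8, at 2.34, 3.07 and 2.55 FPKM in the Col-0-1 libraries, 1.13, 1.61 and 1.64 in Col-0-2, 2.80, 2.89 and 2.74 in dellaq and 1.88, 1.52 and 2.31 in lec1-4, or an inferred 42 to 89 fragments per library. The dellaq libraries overlapped those of Col-0-1 and lay above those of Col-0-2. In dellaq (2.81 ± 0.0730) IDD3 was 1.93-fold higher than in Col-0-2 (1.46 ± 0.284; 0.64, SE 0.13, adjusted p = 0.00101) and did not pass against Col-0-1 (2.65 ± 0.375; 0.06, interval −0.22 to 0.35). In lec1-4 (1.90 ± 0.395) it passed against neither set (0.24 against Col-0-2, adjusted p = 0.128, and −0.34 against Col-0-1, adjusted p = 0.0799). Without lec1-4 replicate 3 it passed against Col-0-1 (−0.43, adjusted p = 0.0432).

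IDD4 is another factor shown to bind DELLA and act on the SCL3 promoter. Its level was 60.7, 58.6 and 63.3 FPKM in the Col-0-1 libraries, 32.4, 33.2 and 36.0 in Col-0-2, 51.1, 47.7 and 49.0 in dellaq and 49.1, 49.8 and 53.0 in lec1-4. Both mutants lay between the wild-type sets with no overlap with either, and they overlapped each other. Accordingly dellaq (49.3 ± 1.68) was 1.24-fold lower than Col-0-1 (60.9 ± 2.33; −0.30, SE 0.05, adjusted p = 1.98e-04). That call was lost under median-ratio scaling (−0.05, adjusted p = 0.40) and its direction turned once a length and GC trend was removed (0.02). IDD4 was 1.45-fold higher in dellaq than in Col-0-2 (33.9 ± 1.87; 0.53, adjusted p = 1.98e-06). Likewise lec1-4 (50.6 ± 2.06) was 1.495-fold higher than Col-0-2 (0.57, adjusted p = 1.23e-06) and 1.20-fold lower than Col-0-1 (−0.26, adjusted p = 0.00248). The wild-type sets themselves differed 1.80-fold (−0.83, adjusted p = 4.73e-08), more than either mutant from either set.

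IDD10, or JACKDAW, restricts the movement and action of the GRAS protein SHORTROOT in roots. It read 12.7, 12.6 and 12.1 FPKM in the Col-0-1 libraries, 5.81, 6.58 and 7.60 in Col-0-2, 15.9, 15.7 and 17.4 in dellaq and 9.60, 9.64 and 12.1 in lec1-4. The dellaq libraries were the 3 highest of the 12, and lec1-4 lay between the wild-type sets, touching Col-0-1 with replicate 3. IDD10 rose 1.31-fold in dellaq (16.4 ± 0.936) against Col-0-1 (12.4 ± 0.310; 0.37, SE 0.10, adjusted p = 0.00539) and 2.45-fold against Col-0-2 (6.66 ± 0.896; 1.185, adjusted p = 6.02e-07). With equal FPKM sums per library the first of these was 0.19 (adjusted p = 0.10), while against the median of all genes it was 0.59. In lec1-4 (10.5 ± 1.45) it was 1.57-fold higher than Col-0-2 (0.58, adjusted p = 2.44e-04) and did not pass against Col-0-1 (−0.24, adjusted p = 0.0978), where it did without lec1-4 replicate 3 (−0.34, adjusted p = 0.0233). Thus IDD10 was the single member whose dellaq libraries all lay above the 6 wild-type libraries, where 10.5% of all genes did, and IDD1, SCL3 and BHLH137 were the 3 that lay below, where 30.0% did. In lec1-4, GAF1 alone lay apart, above, beside 14.9% of all genes above and 5.46% below.

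Set directly against each other, dellaq and lec1-4 differed for 6 of the 8 genes (2 higher in dellaq, 4 lower), where 74.8% of all genes passed (20.2% higher, 54.6% lower). After BHLH137, the largest differences were those of GAF1, 2.90-fold lower in dellaq (−1.41, adjusted p = 2.50e-07), and SCL3, 2.42-fold lower (−1.184, adjusted p = 5.53e-07). IDD10 was 1.56-fold higher in dellaq (0.61, adjusted p = 1.28e-04) and IDD3 1.47-fold higher (0.40, adjusted p = 0.0150), the latter without a call at equal FPKM sums (0.27, adjusted p = 0.081) or without lec1-4 replicate 2 (0.30, adjusted p = 0.0685). IDD1 was 1.16-fold lower (−0.21, adjusted p = 0.00235), a direction that turned with median-ratio scaling (0.08) and passed as higher once a length and GC trend was removed (0.18, adjusted p = 0.0089). IDD4 (−0.04, adjusted p = 0.498) and XERICO (0.15, adjusted p = 0.216) did not pass, but with median-ratio scaling both passed as higher in dellaq (0.25 and 0.42), while with equal FPKM sums IDD4 passed as lower (−0.23, adjusted p = 0.00155).

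The 5 IDD genes together summed to 130 ± 3.36 FPKM in Col-0-1, 87.6 ± 2.94 in Col-0-2, 108 ± 1.26 in dellaq and 120 ± 3.10 in lec1-4. IDD1 and IDD4 made up most of that sum in every library, and the IDD1 share ran from 30.1% ± 1.75 in Col-0-1 to 44.4% ± 0.788 in Col-0-2, with dellaq (31.3% ± 0.677) and lec1-4 (32.8% ± 0.803) near Col-0-1. IDD10 supplied 15.1% ± 0.685 of the sum in dellaq, against 9.60% ± 0.479 in Col-0-1, 7.59% ± 0.767 in Col-0-2 and 8.70% ± 0.969 in lec1-4. GAF1 supplied 5.60% ± 1.09 in dellaq and 14.7% ± 1.41 in lec1-4, while Col-0-1 had 11.4% ± 0.682 and Col-0-2 7.69% ± 1.11. The share of IDD10 in every dellaq library (14.6% to 15.9%) was above that in every other library, and that of GAF1 in dellaq (4.81% to 6.84%) overlapped Col-0-2 (6.70% to 8.90%). Shares within a library do not depend on the scaling between libraries, and as sums of FPKM they compare transcripts per length and not proteins.

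**Figure D3:**
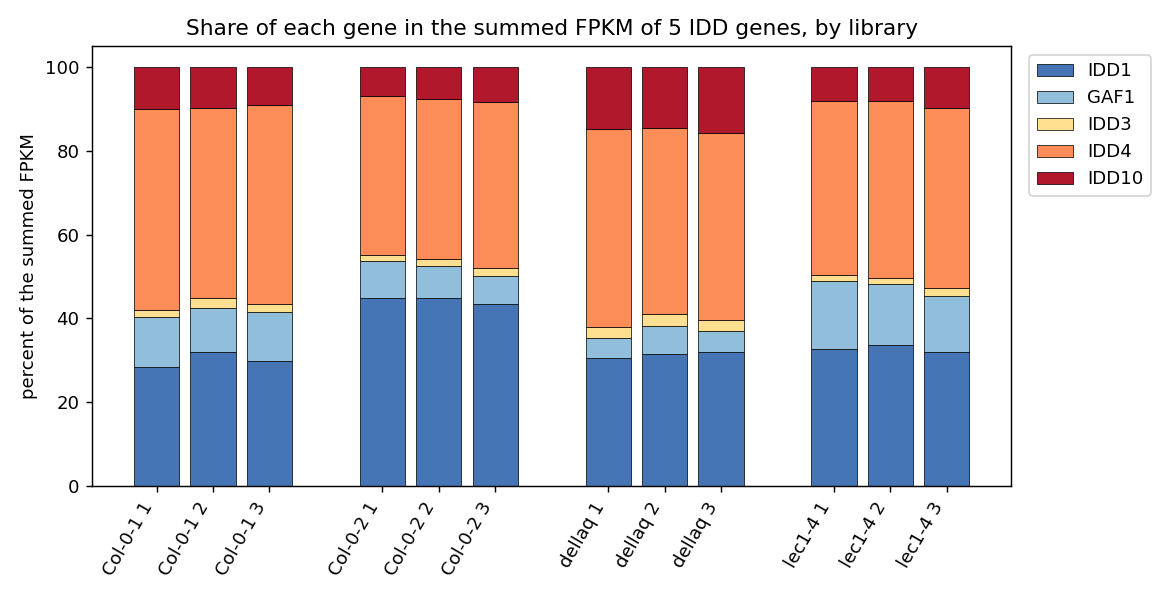
Share of IDD1, GAF1, IDD3, IDD4 and IDD10 in their summed FPKM (percent, stacked to the whole) in each of the 12 libraries. IDD10 takes 14.6% to 15.9% in dellaq and less in all other libraries, and IDD1 takes 43.5% to 44.9% in Col-0-2, its largest share.

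Of the 11 other IDD genes, IDD13 did not pass the filter (at most 0.690 FPKM in any library) and 10 were tested. In dellaq 8 were lower and none higher than in Col-0-1 (median change −0.68, against −0.22 over all genes, of which 50.9% were lower and 19.4% higher). Against Col-0-2 there were 3 higher and 3 lower (median 0.13; 21.9% and 41.6% of all genes). IDD6, IDD9 and IDD12 were lower against both sets, beside 28.4% of all genes; with median-ratio scaling, and also without dellaq replicate 3, 1 gene held against both. IDD6, a zinc-finger gene of the same family, fell to 26.1 ± 1.21 FPKM in dellaq from 42.9 ± 4.85 in Col-0-1 (−0.69, adjusted p = 8.30e-06) and 45.4 ± 2.21 in Col-0-2 (−0.78, adjusted p = 3.27e-06). IDD9 was at 4.38 ± 0.388 FPKM in dellaq against 7.64 ± 0.930 (−0.68) and 5.90 ± 0.713 (−0.36, adjusted p = 0.0154; −0.25 and 0.073 with median-ratio scaling). In lec1-4, 6 were higher and none lower than in Col-0-2 (median 0.52; 42.7% and 23.3% of all genes). Relative to Col-0-1, however, 2 were higher and 2 lower (median 0.02, 15.8% and 10.7% of all genes). IDD16 alone of the 10 held against both sets, beside 12.2% of all genes. It stood at 7.29 ± 0.843 FPKM against 4.40 ± 0.726 in Col-0-1 (0.62, adjusted p = 0.0146) and 0.947 ± 0.392 in Col-0-2 (2.11, adjusted p = 3.94e-07). With a pseudocount of 0.1 FPKM, or without Col-0-1 replicate 2 or 3 or lec1-4 replicate 1, no gene of this list held against both sets in lec1-4. As among the 5 IDD genes above, most of these genes differed between the wild-type sets (8 lower and 1 higher in Col-0-2, beside 40.1% and 25.8% of all genes).

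Of 11 other genes known as early DELLA targets in seedlings, 9 fell and 2 rose in dellaq relative to Col-0-1 (median −0.57; 50.9% and 19.4% of all genes). Relative to Col-0-2, 7 fell and 3 rose (median −0.53; 41.6% and 21.9% of all genes). Against both sets 7 fell and 2 rose, beside 28.4% and 9.78% of all genes. Over the settings run, 8 to 11 passed against Col-0-1 and 6 to 9 held against both sets. The gibberellin receptor gene GID1A fell to 11.9 ± 1.15 FPKM from 22.5 ± 1.40 in Col-0-1 and 22.5 ± 1.63 in Col-0-2 (−0.87 against each, adjusted p = 6.50e-07 and 6.59e-07). BOI, which encodes a RING-type protein that binds DELLA, fell to 13.4 ± 0.796 from 23.9 ± 0.170 (−0.79) and 22.1 ± 0.270 (−0.68). Not all members of the list fell: LBD40, a LATERAL ORGAN BOUNDARIES domain gene, rose to 203 ± 12.3 FPKM from 109 ± 13.2 in Col-0-1 (0.90, adjusted p = 1.66e-05) and 74.9 ± 5.99 in Col-0-2 (1.43, adjusted p = 3.39e-07). AT2G45900 rose to 13.9 ± 3.04 FPKM from 4.01 ± 1.03 (1.57) and 1.26 ± 0.134 (2.70). The gibberellin synthesis gene GA3OX1, named after its values were seen, was lower than Col-0-1 (4.99 ± 1.015 FPKM in dellaq, 17.2 ± 0.855 in Col-0-1; −1.62) and higher than Col-0-2 (2.22 ± 0.526; 0.89), the same split as IDD4.

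In lec1-4 the early DELLA targets divided, 4 higher and 4 lower than in Col-0-2 (median 0.02; 42.7% and 23.3% of all genes) and 1 higher and 4 lower than in Col-0-1 (median −0.05; 15.8% and 10.7% of all genes). Without lec1-4 replicate 1, and also without replicate 2, 5 of the 11 passed against Col-0-2. The receptor gene GID1B rose against both sets, to 6.98 ± 1.47 FPKM from 2.69 ± 0.357 in Col-0-1 (1.10, adjusted p = 7.32e-05) and 2.60 ± 0.236 in Col-0-2 (1.13, adjusted p = 1.05e-05). In dellaq it was lower against both, at 1.49 ± 0.129 FPKM (−0.57 and −0.53). LBD40 was lower in lec1-4 than in either set, at 62.2 ± 10.07 FPKM (−0.81 against Col-0-1 and −0.27 against Col-0-2), but its libraries overlapped those of Col-0-2. The second call (adjusted p = 0.0463) ended with equal FPKM sums (−0.12, adjusted p = 0.33). In lec1-4, 2 genes of the list held against both sets (1 higher and 1 lower), beside 12.2% of all genes (8.19% higher, 4.01% lower). With equal FPKM sums, with no filter or with a length and GC trend removed, 1 did. The count was also 1 without any 1 of Col-0-1 replicate 1, Col-0-2 replicate 1 or 2, dellaq replicate 2 or 3 or lec1-4 replicate 1 or 2.

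**Figure D4:**
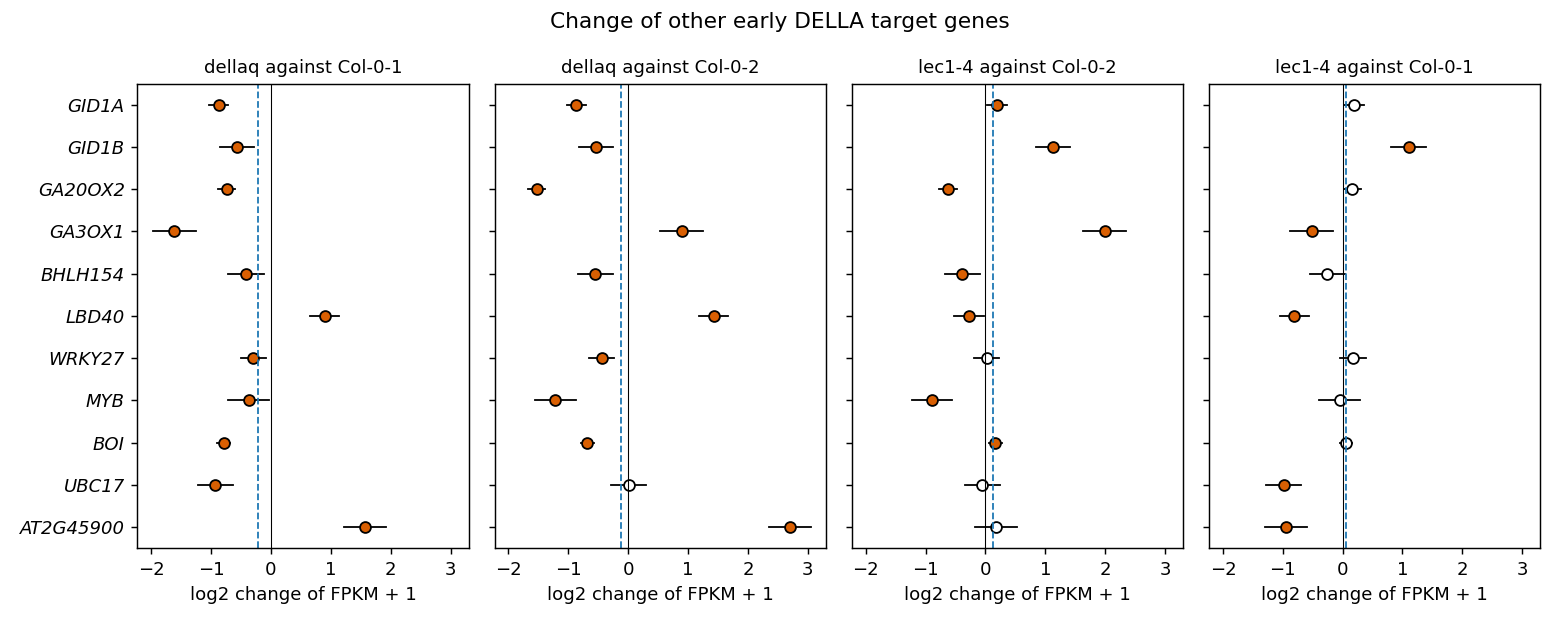
Change of the 11 other early DELLA targets in each mutant against each wild-type set, on the log2(FPKM + 1) scale; points are fitted changes, lines 95% intervals, filled points passed adjusted p 0.05, and the dashed line is the median over all genes tested. LBD40 (0.90 and 1.43) and AT2G45900 (1.57 and 2.70) stand apart on the higher side in both dellaq panels.

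IDD proteins act with GRAS proteins and corepressors. A list of 9 partner genes, which holds genes of these kinds and ABI3, was tested in full. In dellaq 7 fell and 1 rose relative to Col-0-1 (median −0.40; 50.9% and 19.4% of all genes). There 3 fell and 4 rose relative to Col-0-2 (median 0.07; 41.6% and 21.9% of all genes). Of these genes 4 held against both sets, beside 38.2% of all genes. The corepressor genes TPR3 and TPR4 fell in dellaq, TPR3 to 21.4 ± 1.24 FPKM from 37.5 ± 1.29 in Col-0-1 (−0.78) and 28.3 ± 0.595 in Col-0-2 (−0.39), and TPR4 to 37.3 ± 1.45 from 54.5 ± 2.22 (−0.54) and 48.8 ± 1.75 (−0.38). SHR, the SHORTROOT gene, was higher, at 11.996 ± 0.278 FPKM against 9.99 ± 0.732 (0.24, adjusted p = 0.0279, and 0.07 without a call at equal FPKM sums) and 6.77 ± 0.324 (0.74). SCL23, a GRAS gene, was lower, at 9.34 ± 0.579 against 11.6 ± 0.620 (−0.29) and 10.7 ± 0.797 (−0.17, adjusted p = 0.0475), with no call against either set after median-ratio scaling (−0.06 and −0.05). After removal of a length and GC trend, 4 of the 9 passed in dellaq against Col-0-1. The count held against both sets was 2 of 9 without Col-0-1 replicate 2 and again without dellaq replicate 3. In lec1-4, 8 of the 9 were higher and 1 lower than in Col-0-2 (42.7% and 23.3% of all genes), and after removal of a length and GC trend 5 of the 9 passed. Relative to Col-0-1, only 1 was higher and 2 lower in lec1-4 (15.8% and 10.7% of all genes). Between the wild-type sets, 8 of the 9 were lower in Col-0-2 than in Col-0-1 (40.1% of all genes). Against both sets 2 of the 9 held in lec1-4, beside 12.2% of all genes. TPR3 held against both sets (43.9 ± 0.468 FPKM; 0.22 and 0.61) as higher, and ABI3, an activator of maturation genes and one of the embryo markers above, as lower (30.4 ± 3.38 FPKM, where Col-0-1 had 84.3 ± 5.08 and Col-0-2 36.6 ± 3.16; −1.44 and −0.26, the latter −0.11 without a call at equal FPKM sums).

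Genes with the most similar profile were found as those with the smallest root-mean-square difference from a member over the 12 libraries, on centred log2(FPKM + 1), among 15187 genes with a mean of at least 5 FPKM. For BHLH137 the nearest was the DELLA gene RGL1 (0.21), followed by the carbonic anhydrase gene CA2 (0.32), which stood at 0.372 ± 0.115 FPKM in dellaq and 9.46 ± 1.68 in Col-0-1. The labels give no alleles for dellaq, so whether RGL1 is itself mutated there is not known. Shared regulation of RGL1 and BHLH137 was not tested. IDD4 was nearest to AGO10, an ARGONAUTE gene (0.058), whose means were 62.4, 35.1, 52.1 and 49.3 FPKM in Col-0-1, Col-0-2, dellaq and lec1-4, so that both mutants again lay between the wild-type sets. GAF1 was nearest to AT5G37360 (0.13) and to RWA3, a gene of cell wall acetylation (0.14), and SCL3 to AT5G42330 (0.12) and UBP21 (0.13), a ubiquitin protease gene. For IDD1 they were the callose synthase gene GSL8 (0.049) and WHY1 (0.052), for IDD3 AT1G72190 (0.10) and PEL3 (0.10), for IDD10 sks4 (0.11) and AT1G50110 (0.11), and for XERICO AT1G20890 (0.072) and AT1G44770 (0.084). The nearest gene of BHLH137 was farther away than the nearest gene of any other member, and these distances are descriptions over libraries that share their groups.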

How the data were processed

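The authors deposited FPKM for each gene, in 12 libraries prepared with poly-T selection, random priming and no strand marking, per the labels' protocols. The submitters' processing notes name TopHat2 2.0.12, Bowtie2 2.2.3, DESeq 1.18.0 and HTSeq 0.6.1, with no role for any. Build, annotation and handling of multi-gene reads were not given in the sources used here; none of the 8 genes overlaps another RefSeq gene.

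Libraries were grouped by genotype and set name. All values were tested with limma 3.58.1 (limma-trend, R 4.3.3) on log2(FPKM + 1), because FPKM are not counts: 1 model of 12 libraries, 1 mean per group, 8 residual degrees of freedom, Benjamini-Hochberg adjustment over the 20222 genes that reached 1 FPKM in 3 or more libraries (13380 left out). The test was checked on simulated data. Relative depth, from steps between low FPKM values, ranged from 0.925 to 1.31, with Col-0-1 replicate 1 as 1, and inferred fragments per member ranged from 42 (IDD3) to 2225 (IDD4). Correlations within groups were 0.987 to 0.993.

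The 8 members and all gene lists were chosen with earlier results of these data known. Besides the members, DELLA genes, LEC1 and markers, the text names up to 4 genes per list and mutant that held against both wild-type sets with the largest change (ranked against Col-0-1 for dellaq and Col-0-2 for lec1-4) and a mean of 5 FPKM or more in the highest group, list genes that failed the filter, and the 2 nearest profiles per member. IDD12 and GA3OX1 fall outside that rule and were named after their values were seen. Settings tried were other pseudocounts, filters, scalings, wild-type references, a length and GC correction, a replicate block and each library left out. Promoter windows came from RefSeq TAIR10.1.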

Additional observations from a re-analysis of the deposited data

Results flagged for a closer look

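For 5 of the 8 genes the change of dellaq against Col-0-1 differed from that of lec1-4 against Col-0-2 in a direct test of the difference in the same model, where 74.9% of all genes tested did. The difference in log2 change was −3.71 for BHLH137 (adjusted p = 2.96e-09), −2.44 for GAF1 (adjusted p = 3.88e-08), −1.50 for SCL3 (adjusted p = 1.34e-06) and −0.87 for IDD4 (adjusted p = 3.24e-07), each lower in dellaq and higher in lec1-4 than the wild-type set used. For IDD1 it was −0.21 (adjusted p = 0.0174), smaller than the median over all genes (−0.36) and of the opposite sign with median-ratio scaling (0.20). Because the wild-type sets differ, the difference between the mutants themselves, given above, is −3.00, −1.41, −1.18, −0.04 and −0.21 for the same genes in the same order. The test above holds for its own pairing of sets and mutants, which the labels do not give. With the sets exchanged, IDD4 was higher in dellaq (0.53) and lower in lec1-4 (−0.26), the reverse of the directions above. BHLH137 (−2.38), SCL3 (−0.76) and IDD1 (−0.19) stayed lower in dellaq, and GAF1 did not pass (−0.13). In lec1-4, BHLH137 (−0.10), SCL3 (0.11), IDD1 (0.01) and GAF1 (0.24) did not pass. The difference was not tested with the sets exchanged.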

How the results depend on the processing

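Over 1225 settings for single members, 1115 kept direction and call, 18 lost the call, 28 gained one and 64 changed sign. BHLH137 and SCL3 kept theirs in dellaq under every setting run, between −3.41 and −2.15 and between −1.25 and −0.63. IDD1 gave 0.058 in dellaq against Col-0-1, −0.14 and −0.024 in lec1-4 against Col-0-2 and Col-0-1, 0.12 between the wild-type sets, 0.082 in dellaq against lec1-4 and 0.20 in the difference of changes with median-ratio scaling. The same values were 0.16, −0.23, −0.021, 0.21, 0.18 and 0.39 after removal of the length and GC trend. Upper-quartile scaling gave −0.12 and −0.012 in lec1-4, 0.10 between the sets and 0.066 in the difference. The difference of changes became 0.12, 0.017 and 0.26 for IDD3 and 0.17, 0.045 and 0.32 for IDD10 with median-ratio, upper-quartile and length and GC settings, and IDD4 in dellaq against lec1-4 became 0.25, 0.13 and 0.32. XERICO in lec1-4 against Col-0-2 became −0.11, −0.0797 and −0.065, and between the wild-type sets 0.050 and 0.036 with the first 2. After removal of the length and GC trend, GAF1 in dellaq against Col-0-2 became 0.021 and IDD4 against Col-0-1 0.017. With equal FPKM sums, IDD3 and XERICO in dellaq against Col-0-1 became −0.074 and −0.052, and XERICO became −0.035 against lec1-4 and −0.24 in the difference. Against the other wild-type set, IDD4 became 0.53 and −0.30 in dellaq and −0.26 and 0.57 in lec1-4, and in lec1-4 IDD3 became −0.34 and 0.24, IDD10 −0.24 and 0.58, XERICO −0.020 and 0.045 and BHLH137 −0.10 and 0.61. Against the mean of both sets, IDD4 in dellaq became 0.11, and in lec1-4 IDD3 became −0.049, IDD4 0.15, IDD10 0.17, XERICO 0.012 and BHLH137 0.26. Leaving out 1 library each time moved IDD1 from −0.042 to 0.052 in lec1-4 against Col-0-1 and from −0.057 to 0.038 between the wild-type sets, and XERICO from −0.044 to 0.11 and from −0.088 to 0.075 in lec1-4 against Col-0-2 and Col-0-1 and from −0.13 to 0.030 between the sets. The count of members in lec1-4 against Col-0-2 (5) was 1 against the other set and 3 against the mean of both. Against Col-0-1 (1) it was 2 with only the compared libraries, 5 against the other set, 3 against the mean and 1 to 3 with a library left out (3 without lec1-4 replicate 3). Held against both sets in lec1-4 (0), it was 1 with only the compared libraries. Over all genes, 13330 calls for lec1-4 against Col-0-2 became 5370 against Col-0-1, and those 5370 became 13330 against the other set and 10342 against the mean. Same-numbered libraries did not deviate together (2 of 18 correlations over 0.1, range −0.10 to 0.19), and a replicate block left every member count as it was (6 and 6 in dellaq, 5 and 1 in lec1-4). The cause of these shifts was not tested. Of 528 list counts, 37 moved by over 1.5 times. Depth limits IDD3 most, at 42 to 89 inferred fragments, and the 3 libraries per group limit all intervals.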
